A study of Mus musculus with 6 samples.

Results

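Müller glia are the radial glial cells of the retina. The 8 genes described here, Glul, Slc1a3, Aqp4, Kcnj10, Dkk3, Apoe, Clu and Car14, were chosen by name as genes that these cells use in their supporting work. They are 8 of the 24062 genes in the count table, and all 8 are among the 16904 genes that passed the filter on low counts. The 6 libraries are RNA-seq of whole retinae of C57BL/6 mice (C57BL/6N in the methods of the study) at postnatal day 21 (P21), 3 with the Rb1/p107/Hells TKO genotype and 3 with the Rb1/p107 DKO genotype. Both genotypes carried Chx10-Cre, floxed Rb1 alleles and germline loss of p107, and the TKO also carried floxed Hells alleles. Hells encodes a chromatin remodelling helicase, and Rb1 and p107 encode pocket proteins that hold back the cell cycle, so the comparison asks what removal of Hells does in a retina that already lacks both pocket proteins. Chx10-Cre acts in a mosaic of retinal progenitors, so each retina also held cells that did not recombine, and no wild-type retina is part of the comparison. The labels do not say whether the retinae of a genotype came from separate animals, so the p-values measure the spread between these samples, which may be technical in part.

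Müller glia span the whole thickness of the retina and wrap its neurons. They take up glutamate released at synapses and turn it into glutamine, they carry potassium and water away from active neurons, they help to buffer carbon dioxide and acid, and they secrete lipid carriers and Wnt modulators. In injury they can enter reactive gliosis, in which homeostatic genes are often lowered while intermediate filaments and acute phase genes are raised.

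The genes did not move together. Glul, Car14 and Kcnj10 were higher in Rb1/p107/Hells TKO retinae, Apoe was lower, and Aqp4, Slc1a3, Dkk3 and Clu did not pass the test. Of the 8 genes, 4 passed an adjusted p of 0.05 in edgeR's quasi-likelihood test, 3 of them higher and 1 lower, against 16.6% of all genes tested in either direction, 7.35% higher and 9.2% lower. Only Glul also met the study's 3 criteria for a differentially expressed gene (an adjusted p of at most 0.05, a log2 fold change of 1 or more in size, and a mean of 10 or more normalized counts), which 6.35% of all genes tested met. For 4 of the 8 genes the values of the 2 genotypes did not overlap, against 38.6% of all genes tested. The median log2 fold change of the 8 genes was 0.167, and that of all genes tested was -0.0107. Their counts together made up 0.536%, 0.602% and 0.654% of all counts in the TKO retinae and 0.559%, 0.601% and 0.636% in the DKO retinae, so the DKO shares lay within the range of the TKO shares. In whole tissue, fewer cells of a type and less RNA per cell cannot be told apart, and this holds for every value below.

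**Figure D1:**
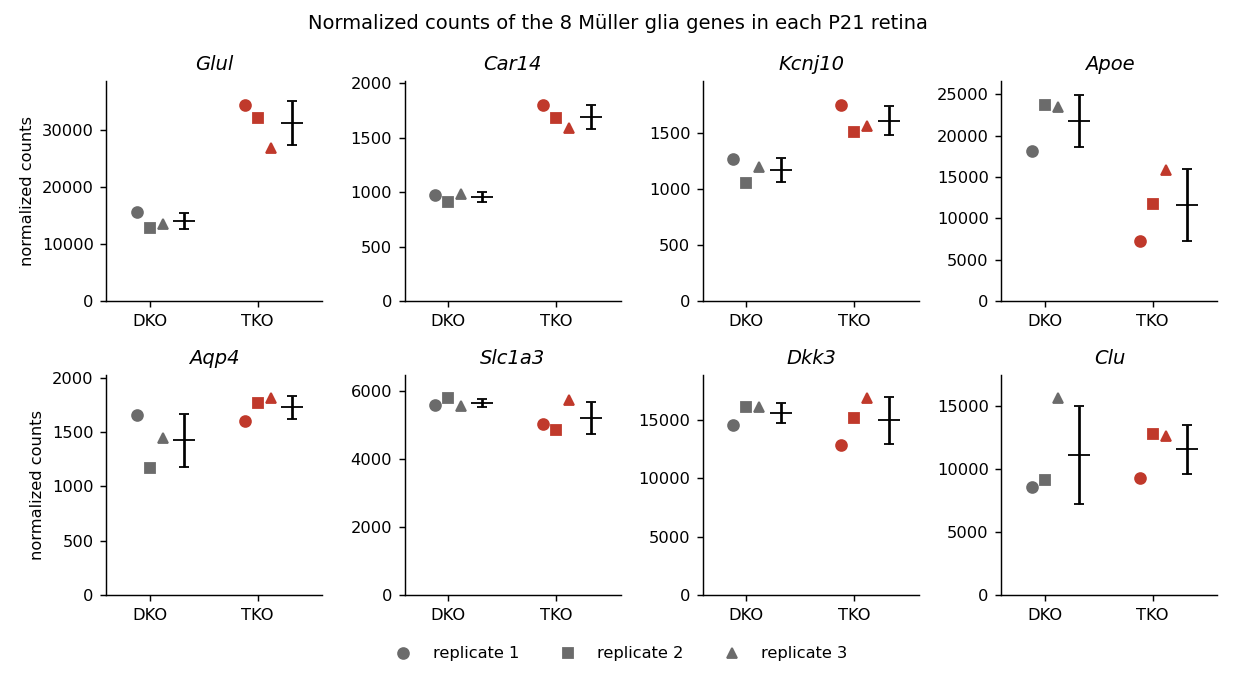
Normalized counts (vertical axes, each starting at 0) of the 8 Müller glia genes in 3 DKO (grey) and 3 TKO (red) retinae, with the marker shape giving the replicate number and the black bar the mean and SD. Glul, Car14 and Kcnj10 are higher in each TKO retina than in any DKO retina, Apoe is lower in each TKO retina, and the genotypes overlap for the other 4 genes.

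Each library had between 10343907 and 14203098 counts, and retinae of 1 genotype differed beyond counting error (chi-square per degree of freedom 8.61 to 25.3). Values of single retinae are always listed in the order of replicates 1, 2 and 3. Normalized counts are counts divided by the library size after TMM scaling relative to the mean library. Hells was at 60.8, 68.4 and 83.4 normalized counts in the TKO retinae and at 678, 523 and 395 in the DKO retinae. Each TKO library was below each DKO library (log2 fold change -2.91, standard error 0.225, edgeR adjusted p = 0.00359). The 10 markers of dividing cells had a median log2 fold change of -2.65, so the lower Hells level alone does not verify the labels. Rb1 had a log2 fold change of 0.34 (edgeR adjusted p = 0.0388) and Rbl1, which encodes p107, one of 0.13 (edgeR adjusted p = 0.839). Of the fits with 1 retina left out, Rb1 passed in the one without TKO replicate 3 (0.0216) and was between 0.0747 and 0.129 in the others. The libraries also differed in cell type markers. All 12 rod markers were higher in TKO retinae, where their summed level was 31500 to 63400 CPM (counts scaled to 1000000 per library) against 10800 to 20400 in DKO retinae, and all 10 markers of dividing cells were lower, with sums of 68.9 to 267 against 610 to 1200 CPM. The part of these shifts in the results below was not tested. Scaling without the rod markers left the same count of members passing in each direction. That scaling changes only the library factors, so it cannot show the part of a shift in cell types.

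The promoters of the 4 genes that passed are shown so that their sequence can be set beside their directions. The RefSeq promoter sequences used here cover 5 of the 8 genes (Glul, Slc1a3, Kcnj10, Apoe and Car14), and those of Aqp4, Dkk3 and Clu were not analysed here. Each sequence is the 250 bases before the RefSeq start, 5′ to 3′ on the strand of the gene in GRCm38.p6, and capitals mark CCAAT or its reverse complement ATTGG. The Glul window is chr1:153899679-153899928 on the plus strand, and the Kcnj10 window is chr1:172340960-172341209 on the plus strand. The Car14 window is chr3:95904686-95904935 on the minus strand, and the Apoe window is chr7:19699189-19699438 on the minus strand, before 1 of its 3 RefSeq starts.
Glul: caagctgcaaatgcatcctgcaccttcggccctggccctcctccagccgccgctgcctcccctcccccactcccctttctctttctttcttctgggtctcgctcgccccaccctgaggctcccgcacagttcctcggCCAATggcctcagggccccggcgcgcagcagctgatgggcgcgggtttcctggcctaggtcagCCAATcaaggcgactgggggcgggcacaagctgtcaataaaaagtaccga
Kcnj10: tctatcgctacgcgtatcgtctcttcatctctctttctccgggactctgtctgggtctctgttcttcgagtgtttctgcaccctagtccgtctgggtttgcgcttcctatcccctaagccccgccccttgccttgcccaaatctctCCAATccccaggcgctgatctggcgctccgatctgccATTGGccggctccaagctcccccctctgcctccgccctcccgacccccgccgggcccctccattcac
Car14: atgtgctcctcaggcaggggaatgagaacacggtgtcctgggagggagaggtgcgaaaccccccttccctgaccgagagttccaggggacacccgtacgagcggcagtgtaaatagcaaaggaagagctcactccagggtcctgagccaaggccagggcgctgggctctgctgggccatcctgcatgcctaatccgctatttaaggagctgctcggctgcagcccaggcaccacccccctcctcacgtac
Apoe: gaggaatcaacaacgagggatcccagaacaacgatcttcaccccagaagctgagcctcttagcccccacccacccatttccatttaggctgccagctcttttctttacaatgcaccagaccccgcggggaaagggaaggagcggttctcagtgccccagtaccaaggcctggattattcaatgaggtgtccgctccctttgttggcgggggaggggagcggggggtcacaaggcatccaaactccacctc

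The windows differed in the short motifs they hold. CCAAT, the core bound by the NF-Y factor, was found on either strand 2 times in Glul and 2 times in Kcnj10, 3 times in Slc1a3, and in neither Car14 nor Apoe, and it occurs in 33.8% of all 32851 RefSeq promoter windows of the same length. The GC box GGGCGG was found 1 time in Glul, 2 times in Kcnj10 and 1 time in Slc1a3, and is in 32.7% of windows. ACAAT, the core that SOX factors bind, was found 1 time in Apoe and 1 time in Slc1a3, with 27.7% of windows holding it, and TATAAA was found only in Slc1a3 of the 5 windows (12.4% of windows). The E2F sites TTTCCCGC and TTTGGCGC, which 1.3% of windows hold, and the NFI palindrome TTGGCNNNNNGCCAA, which 0.0365% hold, had no match in the 5 windows. All motifs were searched on both strands, and a match is a description of the letters only. Windows of the 3 genes that rose therefore shared no motif of this set, since Car14 held none of them.

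The first role is glutamate uptake and its conversion to glutamine. Glul encodes glutamine synthetase, which makes glutamine from glutamate and ammonia and in the retina is a defining enzyme of Müller glia. Glul was at 34535, 32171 and 26985 normalized counts in the TKO retinae and at 15689, 12912 and 13606 in the DKO retinae. The lowest TKO retina was above the highest DKO retina by 11296 normalized counts. The means were 31230 ± 3862 and 14069 ± 1445 (SD, n = 3 each), a 2.22-fold difference with a log2 fold change of 1.15 (standard error 0.134, edgeR adjusted p = 0.00548). It passed in all 16 alternatives run, with log2 fold changes from 0.99 to 1.25 and an adjusted p of at most 0.0362 in edgeR with any 1 retina left out. In GRCm38 the Glul gene spans chr1:153899944-153909723 (plus strand), where it shares 285 bp with the antisense gene Teddm2, which is not among the genes counted, and 93 bp with Mir8114, which had 0 counts in every library.

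Slc1a3 encodes GLAST, the main glutamate transporter of Müller glia, which takes up the substrate that Glul uses. Slc1a3 was at 5023, 4844 and 5735 normalized counts in the TKO retinae and at 5592, 5777 and 5560 in the DKO retinae. TKO replicates 1 and 2 were below all DKO retinae while TKO replicate 3 was within their range. The log2 fold change was -0.12 (standard error 0.0944, edgeR adjusted p = 0.420), with means of 5200.4 ± 471 and 5643 ± 117 (SD, n = 3 each). In GRCm38 the Slc1a3 gene spans chr15:8634124-8710764 (minus strand). Counts of Glul per count of Slc1a3 in the same retina were 6.88, 6.64 and 4.71 in the TKO retinae and 2.81, 2.23 and 2.45 in the DKO retinae. The ratio did not overlap between genotypes and was 2.43-fold higher in TKO retinae (two-sided exact permutation p = 0.1, which is the smallest that 3 against 3 allows, and 0.133 after adjustment over the 4 ratios tested).

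Among 18 other genes of glutamate and glutamine handling, 3 were higher, 0 lower and 15 did not pass, with a median log2 fold change of 0.0794. Among those that rose were Slc38a3, a glutamine carrier (7148 ± 1695 against 3737 ± 823 normalized counts, log2 fold change 0.94, edgeR adjusted p = 0.0186), and Got1, the cytosolic aspartate aminotransferase (0.60, adjusted p = 0.0214). The most abundant gene of the list was Gad1, which makes GABA from glutamate in amacrine cells, at 7389 ± 378 and 6738 ± 180 normalized counts (0.13, adjusted p = 0.324). These calls were less firm than that of Glul. In edgeR none of the list passed higher when TKO replicate 2, DKO replicate 1 or DKO replicate 2 was omitted, 1 did when TKO replicate 1 was omitted, and 5 did when TKO replicate 3 was. The largest adjusted p in those fits was 0.0817 for Slc38a3 (DKO replicate 2 omitted) and 0.0881 for Got1 (TKO replicate 2 omitted).

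Potassium and water handling is the next role. Kcnj10 encodes Kir4.1, the inward rectifier channel through which Müller glia pass potassium, and Aqp4 encodes the water channel that sits beside it at the glial endfeet. Kcnj10 was at 1755, 1510.3 and 1566 normalized counts in the TKO retinae and at 1270, 1059 and 1197 in the DKO retinae. Each TKO retina was above each DKO retina, with the nearest pair apart by 241 normalized counts. The means were 1610.3 ± 128 and 1175 ± 106.8 (SD, n = 3 each), a 1.37-fold difference (log2 fold change 0.45, standard error 0.0960, edgeR adjusted p = 0.0176). The call was lost when TKO replicate 1 (edgeR adjusted p = 0.0575), TKO replicate 2 (0.0527) or DKO replicate 2 (0.0747) was left out, and it passed in 11 of 16 alternatives, while the log2 fold change stayed between 0.30 and 0.51. In GRCm38 the Kcnj10 gene spans chr1:172341210-172374085 (plus strand).

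Aqp4 was at 1603, 1767 and 1808 normalized counts in the TKO retinae and at 1657, 1172 and 1445 in the DKO retinae. DKO replicate 1 was within the TKO range and the other two DKO retinae were below it. The log2 fold change was 0.28 (standard error 0.125, edgeR adjusted p = 0.163), and it passed in 0 of 16 alternatives. Counts of Kcnj10 per count of Aqp4 were 1.09, 0.855 and 0.866 in the TKO retinae and 0.766, 0.904 and 0.828 in the DKO retinae, so the ratio of the 2 channels overlapped between genotypes (two-sided exact permutation p = 0.4). In GRCm38 the Aqp4 gene spans chr18:15389496-15410982 (minus strand) and shares 7896 bp with an antisense transcript, whose reads cannot be told apart from those of Aqp4 if counting did not use strand.

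The list of 17 other potassium channels, water channels and dystrophin complex genes had 5 higher, 1 lower and 11 that did not pass, with a median log2 fold change of 0.191. Of the genes that anchor the channels, Dmd, which encodes dystrophin, had a log2 fold change of 1.19 (edgeR adjusted p = 0.00821), the syntrophin gene Sntb2 one of 1.17 (adjusted p = 0.00473) and Sntg2 one of 1.49 (adjusted p = 0.0101). Dag1, which encodes dystroglycan and was the most abundant gene of the list, fell by 0.32 on the log2 scale (1808 ± 195 against 2259 ± 47.4 normalized counts, edgeR adjusted p = 0.0492), and of the fits with 1 retina left out only the one without TKO replicate 3 kept the call. The largest rise was that of the water channel gene Aqp1, with 1391, 1230.4 and 834 normalized counts in the TKO retinae and 269, 296 and 482 in the DKO retinae. The Aqp1 groups did not overlap (log2 fold change 1.72, standard error 0.252, edgeR adjusted p = 0.00733, at most 0.0407 with any 1 retina left out). Dmd and Sntb2 also passed with any 1 retina left out, and Sntg2 did not pass when DKO replicate 2 was omitted (0.0517). Higher calls in the list numbered 3 when DKO replicate 2 was omitted.

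For acid and base handling, Car14 encodes a membrane carbonic anhydrase, which interconverts carbon dioxide and bicarbonate at the cell surface. Car14 was at 1803, 1681 and 1588 normalized counts in the TKO retinae and at 971, 908 and 988 in the DKO retinae. All TKO values were above all DKO values, and the DKO retinae lay close together. The means were 1691 ± 108 and 956 ± 42.2 (SD, n = 3 each), a 1.77-fold difference (log2 fold change 0.82, standard error 0.0802, edgeR adjusted p = 0.00462). It passed in all 16 alternatives run, with log2 fold changes from 0.66 to 0.87 and at most 0.0335 with any 1 retina left out. In GRCm38 the Car14 gene spans chr3:95897768-95904691 (minus strand) and shares 521 bp with Aph1a on the other strand, which had a log2 fold change of -0.10 (edgeR adjusted p = 0.444).

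Car14 and Aqp1 are also made by the retinal pigment epithelium (RPE), the layer that adheres to the retina. The summed level of 12 RPE markers was 166, 269 and 125 CPM in the TKO retinae and 38.8, 109 and 150 in the DKO retinae, with 2 markers higher and none at 0. The RPE sums overlapped between genotypes. The RPE enzyme gene Rpe65 was at 154, 258 and 49.1 normalized counts in the TKO retinae and at 1.88, 18.4 and 35.4 in the DKO retinae without overlap (edgeR adjusted p = 0.0324, and 0.0731 to 0.119 when any of TKO replicates 1 and 2 and DKO replicates 1 and 2 was left out). The part of RPE RNA in the Car14 and Aqp1 values was not tested.

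Of 22 other carbonic anhydrases, bicarbonate and lactate transporters, 2 were higher, 0 lower and 20 did not pass, with a median log2 fold change of 0.171. Slc4a7, a sodium bicarbonate cotransporter, had 2406 ± 689 against 1135 ± 185 normalized counts (log2 fold change 1.08, edgeR adjusted p = 0.0130). Slc16a1, the monocarboxylate transporter that carries lactate, had 1810.4 ± 571 against 950.4 ± 75.9 normalized counts (0.93, adjusted p = 0.0222). Car2, the abundant cytosolic carbonic anhydrase of Müller glia, was at 7272 ± 304 and 6001 ± 508 normalized counts (0.28, adjusted p = 0.0862). No gene of the list passed higher in edgeR when TKO replicate 2, DKO replicate 1 or DKO replicate 2 was omitted, 1 did when TKO replicate 1 was, and 4 did when TKO replicate 3 or DKO replicate 3 was.

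**Figure D2:**
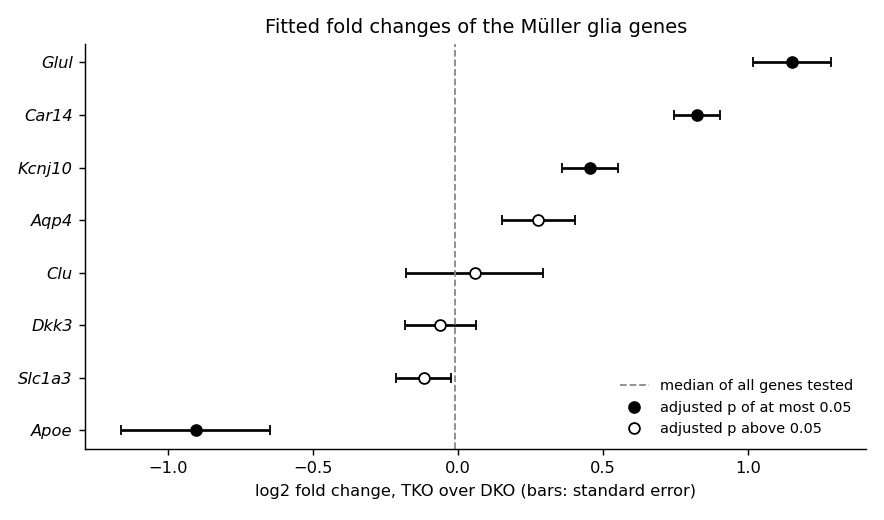
Log2 fold change of TKO over DKO retinae (horizontal axis) for each of the 8 genes, with the standard error as a bar and filled circles for an adjusted p of at most 0.05 in edgeR. Values run from -0.90 for Apoe to 1.15 for Glul, with the median of all genes tested (-0.0107) as a dashed line.

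Secreted lipid carriers come next. Apoe encodes apolipoprotein E, the main lipid carrier secreted by glia, which microglia also make. Apoe was at 7299, 11683 and 15903 normalized counts in the TKO retinae and at 18091, 23733 and 23461 in the DKO retinae. Every TKO retina was below every DKO retina, and the TKO retinae spread widely, with a coefficient of variation of 37.0%. The means were 11628 ± 4302 and 21762 ± 3182 (SD, n = 3 each), a 1.87-fold lower level in TKO retinae (log2 fold change -0.90, standard error 0.257, edgeR adjusted p = 0.0466). This was the least firm of the 4 calls. Of the fits with 1 retina left out, the one without TKO replicate 3 passed (edgeR adjusted p = 0.00892, log2 fold change -1.19). Omission of TKO replicate 1 gave 0.0712 and of TKO replicate 2 0.134, and omission of DKO replicates 1, 2 and 3 gave 0.0798, 0.145 and 0.0774. DESeq2 gave an adjusted p of 0.00106. In GRCm38 the Apoe gene spans chr7:19696109-19699188 (minus strand).

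Microglia markers were read beside Apoe. Of 12 microglia markers, 0 were higher, 7 lower and 5 did not pass, none was at 0, and their summed level was 155, 203 and 287 CPM in the TKO retinae and 428, 508 and 336 in the DKO retinae. As for Apoe, TKO replicate 1 had the lowest sum and no TKO sum reached the lowest DKO sum, whereas among DKO retinae the sum was lowest in replicate 3 and Apoe in replicate 1. C1qa, a complement gene of microglia, had 301 ± 97.8 against 732 ± 179 normalized counts (log2 fold change -1.29, edgeR adjusted p = 0.0125). The C1qa call was lost without TKO replicate 2 (adjusted p = 0.0617) and without DKO replicate 2 (0.0519). Which cells account for the Apoe counts was not tested.

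Clu encodes clusterin, a secreted chaperone and lipid carrier that glia and neurons make. Clu was at 9299, 12777 and 12599.6 normalized counts in the TKO retinae and at 8594, 9132 and 15608 in the DKO retinae. DKO replicate 3 was the highest of all 6 retinae, and DKO replicates 1 and 2 were the lowest. The log2 fold change was 0.06 (standard error 0.236, edgeR adjusted p = 0.889), and it was 0.38 without DKO replicate 3 (adjusted p = 0.125). In GRCm38 the gene spans chr14:65968483-65981547 (plus strand). Counts of Apoe per count of Clu were 0.785, 0.914 and 1.26 in the TKO retinae and 2.11, 2.6 and 1.5 in the DKO retinae. The ratio of the 2 carriers did not overlap between genotypes (two-sided exact permutation p = 0.1, the smallest possible here, and 0.133 after adjustment over the 4 ratios).

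**Figure D3:**
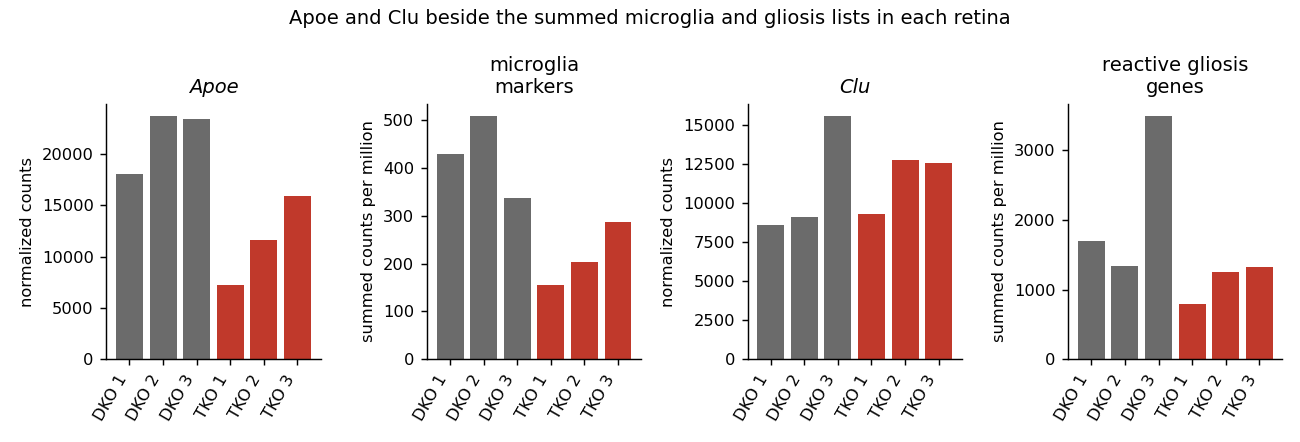
Normalized counts of Apoe and Clu, and summed CPM of 12 microglia markers and 19 reactive gliosis genes, in each of 3 DKO (grey) and 3 TKO (red) retinae, with all axes from 0. Apoe and the microglia sum are lower in each TKO retina, and DKO replicate 3 has the highest Clu value and the highest gliosis sum (3490 CPM).

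Of the 18 other lipid carriers, receptors and cholesterol exporters tested (Apob, a further gene of the list, failed the filter), 4 were higher, 4 lower and 10 did not pass, with a median log2 fold change of -0.00138. The receptors of apolipoprotein E were divided. Vldlr, the most abundant gene of the list, rose (4443 ± 882 against 2274 ± 150 normalized counts, log2 fold change 0.97, edgeR adjusted p = 0.00733), as did Lrp2, which encodes megalin (318 ± 17.4 against 187 ± 12.6, 0.77, adjusted p = 0.00733), while Lrp8 fell (log2 fold change -0.50, adjusted p = 0.0430). Abca1, which loads cholesterol onto apolipoproteins, fell (log2 fold change -0.84, adjusted p = 0.0226), as did Apoc1, a small apolipoprotein (-1.53, adjusted p = 0.0314), and Lcat, which esterifies cholesterol on lipoproteins (-0.96, adjusted p = 0.0337). Scarb1 and Abca7 were the other 2 genes that rose. Vldlr and Lrp2 passed in edgeR with any 1 retina left out, whereas omission of any 1 of TKO replicates 1 and 2 and DKO replicates 1 and 2 left 0 genes of the list lower and 2 higher, with edgeR adjusted p values of 0.0591 to 0.145 for Abca1, Apoc1, Lcat and Lrp8.

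Dkk3 encodes a secreted Dickkopf family glycoprotein that Müller glia express strongly. Dkk3 was at 12891, 15182 and 16857 normalized counts in the TKO retinae and at 14599, 16106 and 16156 in the DKO retinae. The lowest and the highest of the 6 values were both from TKO retinae, so the DKO range lay within the TKO range. The log2 fold change was -0.06 (standard error 0.123, edgeR adjusted p = 0.767). In GRCm38 the gene spans chr7:112116017-112159057 (minus strand). Of 14 other Dickkopf family genes and Wnt antagonists tested, 0 were higher, 2 lower and 12 did not pass, with a median log2 fold change of -0.387, and Dkk4, a further gene of the list, failed the filter. The 2 that fell were the Wnt coreceptor gene Lrp5 (327 ± 91.8 against 637 ± 66.4 normalized counts, log2 fold change -0.96, edgeR adjusted p = 0.0136) and the Wnt inhibitor gene Wif1 (19.3 ± 11.6 against 93.0 ± 41.7, -2.27, adjusted p = 0.0187). The most abundant gene, the Dickkopf receptor gene Kremen1, was at 976 ± 131 and 1105 ± 477 (-0.18, adjusted p = 0.671). Lrp5 did not pass without TKO replicate 2 (adjusted p = 0.0644), DKO replicate 1 (0.0569) or DKO replicate 2 (0.0558), and Wif1 did not pass without these or without TKO replicate 1 (0.0537 to 0.0803).

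Levels can be compared between genes only per length of exon. On the scale of CPM per kb of exon, the order in DKO retinae was Apoe (805 ± 118), Dkk3 (368 ± 20.8), Glul (335 ± 34.4), Clu (256 ± 89.8), Slc1a3 (52.3 ± 1.08), Car14 (29.7 ± 1.31), Aqp4 (18.1 ± 3.08) and Kcnj10 (17.2 ± 1.56). The values of Dkk3, Glul and Clu all overlapped one another, as did those of Aqp4 and Kcnj10. In TKO retinae the order was Glul (743 ± 91.9), Apoe (430 ± 159), Dkk3 (352 ± 46.9), Clu (266 ± 45.1), Car14 (52.6 ± 3.35), Slc1a3 (48.2 ± 4.36), Kcnj10 (23.5 ± 1.87) and Aqp4 (21.9 ± 1.37), all SD with n = 3. Here Apoe overlapped with Dkk3 and with Clu, Car14 with Slc1a3, and Kcnj10 with Aqp4. Apoe was the highest of the 8 in each DKO retina and Glul the highest in each TKO retina. Counts of Glul per count of Apoe were 4.73, 2.75 and 1.7 in the TKO retinae and 0.867, 0.544 and 0.58 in the DKO retinae, without overlap (two-sided exact permutation p = 0.1, the smallest possible here, and 0.133 after adjustment over the 4 ratios).

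Each gene was also set against the mean of the other 7 in its own retina, which removes any scaling of the library and restates the counts above on another scale. On this log2 ratio the TKO mean minus the DKO mean was 1.08 for Glul, 0.70 for Car14, 0.28 for Kcnj10, 0.09 for Aqp4, -0.13 for Clu, -0.31 for Dkk3, -0.38 for Slc1a3 and -1.34 for Apoe. The genotypes did not overlap for Glul, Car14, Apoe, Slc1a3 and Dkk3 and overlapped for the other 3 genes. No test is given for these ratios, because each gene is part of the reference of the others. When the reference was the list of other Müller glia genes in place of the 7, Slc1a3, Dkk3 and Clu changed sign, to 0.37, 0.42 and 0.58, while Glul (1.64), Car14 (1.31), Kcnj10 (0.94), Aqp4 (0.78) and Apoe (-0.48) kept theirs.

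**Figure D4:**
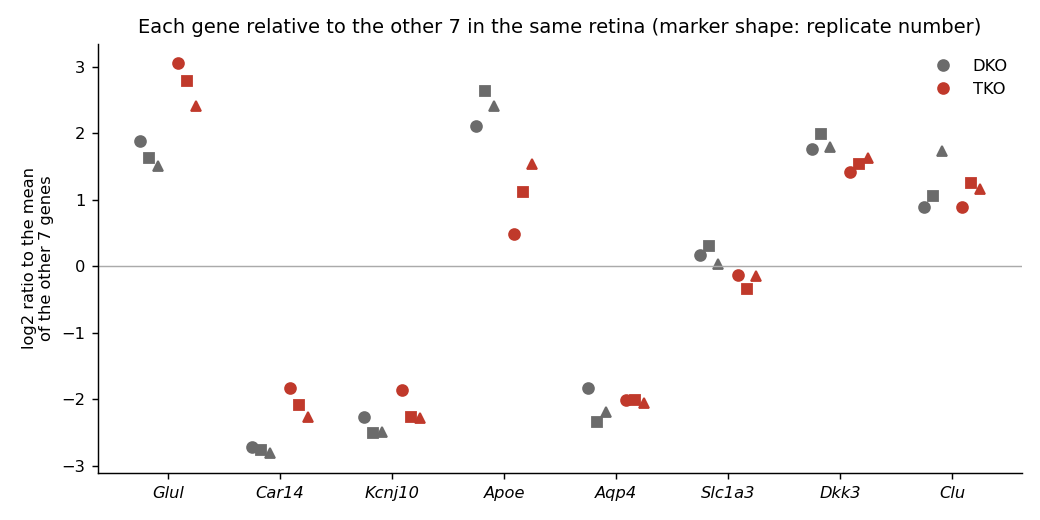
Log2 ratio of each gene to the mean of the other 7 genes in the same retina (vertical axis), for 3 DKO (grey) and 3 TKO (red) retinae, with the marker shape giving the replicate number. Glul and Car14 are higher and Apoe, Slc1a3 and Dkk3 lower in each TKO retina than in any DKO retina.

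Likeness of pattern across the 6 retinae was measured as the mean absolute difference of log2 CPM over the 6 libraries after each gene was centred on its own mean, among 11681 genes with a mean of at least 100 normalized counts. For every one of the 8 genes, 0 of the other 7 were among its 20 nearest genes. With 11681 genes compared, 7 unrelated genes would mostly give 0 as well, so this count does not show whether the genes vary together. Car14 ranked 62 among the genes nearest to Glul and Aqp4 ranked 795 among those nearest to Kcnj10. The closest pairs were Slc1a3 with Dkk3 (0.0866), Aqp4 with Kcnj10 (0.118) and Glul with Car14 (0.163), and the furthest was Glul with Apoe (1.06). The 3 genes nearest to Glul were Enpp2 (0.0911), which encodes autotaxin, the cation channel gene Trpc1 (0.105) and Cpt1a (0.107), the carnitine palmitoyltransferase of mitochondrial fatty acid import. Those nearest to Car14 were Lrp2 (0.0308), Arhgef26 (0.0485) and Trim36 (0.0519), and those nearest to Kcnj10 were 1600020E01Rik (0.0136), Aak1 (0.0193) and Ncoa1 (0.0373). Those nearest to Apoe were Unc93b1 (0.0887), a carrier of endosomal Toll-like receptors, and the lysosomal genes Ifi30 (0.113) and Ctsc (0.118). With 6 libraries in 2 groups, genes that share a difference between genotypes are near each other by construction.

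The label of the 8 genes was set against 20 other genes of Müller glia, all of which were detected. Of these, 2 were higher, 8 lower and 10 did not pass, with a median log2 fold change of -0.31. The 2 that rose were Rlbp1 and Abca8a. Rlbp1, which encodes the retinoid carrier CRALBP and is also made in the RPE, was at 8980.3, 8054 and 6951 normalized counts in the TKO retinae and at 4292, 4734 and 5120.0 in the DKO retinae. Its groups did not overlap (log2 fold change 0.76, standard error 0.121, edgeR adjusted p = 0.00821, at most 0.0438 with any 1 retina left out). Abca8a, a lipid transporter gene, had 4209 ± 201 against 2818 ± 430 normalized counts (0.58, adjusted p = 0.0149), and it did not pass without TKO replicate 2 (0.0532) or DKO replicate 2 (0.0679).

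Of the 8 that fell, 6 encode transcription factors that Müller glia share with retinal progenitors. Nfix, a nuclear factor I gene, had 889 ± 185 against 2248 ± 252 normalized counts (log2 fold change -1.34, edgeR adjusted p = 0.00513), and Sox2 had 257 ± 44.6 against 569 ± 57.5 (-1.15, adjusted p = 0.00627). Both passed with any 1 retina left out. The log2 fold change was -1.78 for Nfib (edgeR adjusted p = 0.00733), -2.07 for the Notch target Hes5 (adjusted p = 0.00886), -1.02 for Sox9 (adjusted p = 0.0155) and -0.68 for Lhx2 (adjusted p = 0.0440). The other two were Ptn, which encodes the growth factor pleiotrophin (-0.94), and Dbi, which encodes an acyl-CoA binding protein (-0.77). Nfib, Hes5 and Dbi passed with any 1 retina left out. Sox9 did not pass when DKO replicate 1 (edgeR adjusted p = 0.0546) or DKO replicate 2 (0.0513) was omitted, Lhx2 when TKO replicate 2 (0.0919), DKO replicate 1 (0.120) or DKO replicate 2 (0.137) was, and Ptn when any of these or TKO replicate 1 was (0.0559 to 0.0702). The lower calls numbered 5 without DKO replicate 1 or DKO replicate 2 and 10 without TKO replicate 3, and the higher calls 1 without TKO replicate 2 or DKO replicate 2 and 3 without DKO replicate 3. The sums of the 20 genes were 2420 to 2760 CPM in TKO and 2740 to 2790 CPM in DKO retinae. The 6 genes were grouped as transcription factors after their values were seen, and other transcription factor genes of the list did not pass, with log2 fold changes of 0.41 for Rax, -0.01 for Nfia, -0.27 for Hes1 and -0.35 for Sox8.

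Of 19 genes of reactive gliosis, 0 were higher, 5 lower and 14 did not pass, with a median log2 fold change of -0.88. Lcn2, the acute phase gene lipocalin 2, was at 44.7, 31.6 and 78.5 normalized counts in the TKO retinae and at 727, 661 and 3066 in the DKO retinae. All TKO values were far below the DKO values, and DKO replicate 3 stood apart from the other DKO retinae (log2 fold change -4.86, standard error 0.716, edgeR adjusted p = 0.00733, at most 0.0425 with any 1 retina left out). Cp, which encodes ceruloplasmin and was the most abundant of the list, fell (log2 fold change -0.89, edgeR adjusted p = 0.0270), as did Nes, the intermediate filament gene nestin (-0.88, adjusted p = 0.0142). Timp1 and A2m were the other 2 that fell. Cp did not pass without TKO replicate 1 (0.0781), TKO replicate 2 (0.0961) or DKO replicate 1 (0.0706), and Nes did not pass without TKO replicate 2 (0.0568) or DKO replicate 1 (0.0580). The list had 1 lower call when TKO replicate 2 or DKO replicate 1 was omitted, 2 when TKO replicate 1 was and 8 when TKO replicate 3 was, and omission of DKO replicate 3 left 4 lower and 1 higher.

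Gfap, the filament gene of astrocytes and of reactive Müller glia, was at 1341, 2669 and 3640 normalized counts in the TKO retinae and at 5595, 3948 and 11556 in the DKO retinae. Its groups did not overlap, and its log2 fold change of -1.46 did not pass (standard error 0.444, edgeR adjusted p = 0.0566). Of the fits with 1 retina left out, only the one without TKO replicate 3 passed (edgeR adjusted p = 0.0328). The sums of the 19 gliosis genes were 797, 1250 and 1330 CPM in the TKO retinae and 1690, 1340 and 3490 CPM in the DKO retinae. DKO replicate 3, with the highest gliosis sum, also had the highest Clu value, while DKO replicate 1 had the highest Aqp4 and Glul values of its group. None of the 6 astrocyte markers passed in either direction, and their sums were 165 to 375 CPM in TKO and 447 to 984 CPM in DKO retinae. Gfap is among these 6 and was the most abundant of them, so the sums mostly followed Gfap. Of the others, Aldh1l1 was higher (log2 fold change 0.87), while values were -0.31 for Pax2, -0.35 for S100b, -1.07 for Gja1 and -1.02 for Fgfr3. The number of astrocytes was not tested.

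**Figure D5:**
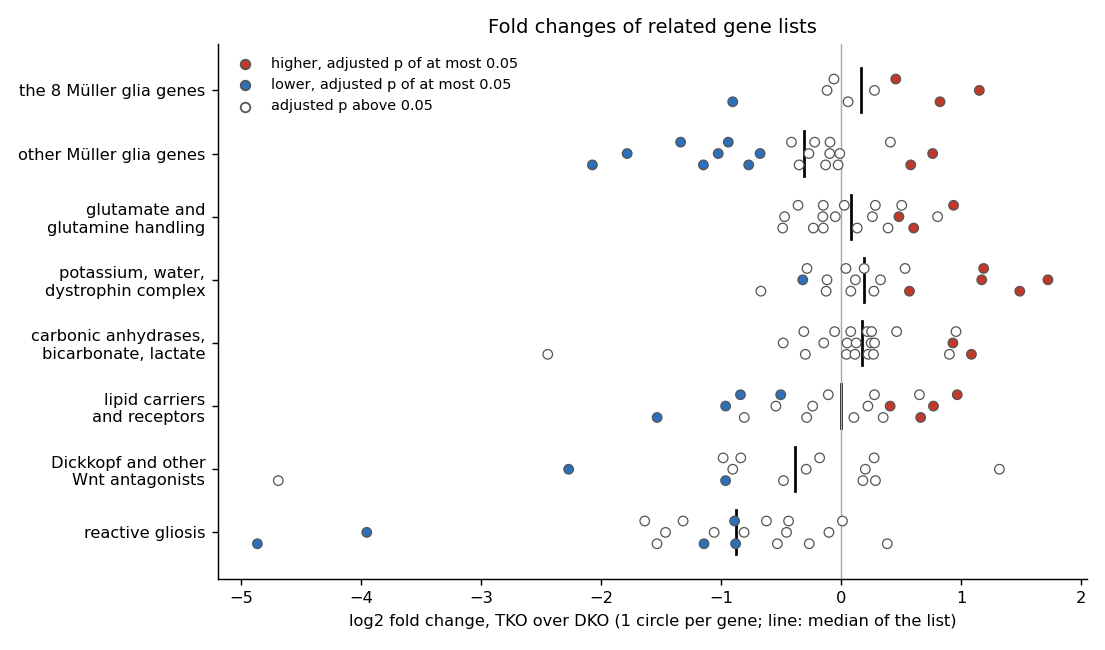
Log2 fold change of TKO over DKO retinae (horizontal axis) for the 8 Müller glia genes and for 7 related lists (rows), with 1 circle per gene, filled red (higher) or blue (lower) where edgeR's adjusted p was 0.05 or less, and a line at the median of each list. Medians run from -0.88 for gliosis genes to 0.191 for potassium, water and dystrophin complex genes.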

How the data were processed

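RNA-seq counts of P21 retinae (3 TKO, 3 DKO) were analysed, grouped by the titles in the labels. The values are raw counts per gene symbol, which the authors deposited without normalization, 1 column per retina. The paper names STAR and HTSeq, while the submitters' processing notes name TopHat2, featureCounts and DESeq2 with mm10 (GRCm38), so the tool behind the counts is uncertain. The kit was TruSeq Stranded mRNA, the strand setting of the counting is not given in the sources used here, and overlapping or antisense genes are less certain. Libraries summed to 10343907 to 14203098 counts, which limits the precision of low genes most.

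Genes with a sum under 10 counts were removed, leaving 16904 of 24062. The genotypes were compared in R 4.3.3 by the quasi-likelihood F test of edgeR 4.0.16 after TMM scaling, with Benjamini-Hochberg adjustment over all genes tested, a call being an adjusted p of at most 0.05. Standard errors were derived from the F statistic (size of the log2 fold change over its square root). Ratios within a retina used exact permutation tests over the 6 samples. Same-numbered replicates did not deviate together (correlations 0.0412, -0.0438 and -0.121), so the numbers were not used as pairs. Locations and exon lengths come from GENCODE M21 (GRCm38), and promoters from RefSeq (GRCm38.p6).

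The 8 genes, the 7 related lists and the 9 marker lists were written by hand, with earlier results of these data known. Genes named were the 8, Hells, Rb1 and Rbl1, and by rule the most abundant gene of a list and those with the smallest adjusted p in each direction (2 for related lists, 1 for marker lists), and the 3 nearest genes of members that passed. Some genes of the lists are not reported here. Dmd, Sntg2, Lrp8, Lcat, Scarb1, Abca7, Nfib, Hes5, Sox9, Lhx2, Rax, Nfia, Hes1, Sox8, Ptn, Dbi, Timp1 and A2m were named after their values were seen. So were Aldh1l1, Pax2, S100b, Gja1 and Fgfr3. The alternatives were 4 scalings, 3 filters on low counts, robust dispersion, the replicate block, DESeq2 1.42.0 and each retina left out.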

Additional observations from a re-analysis of the deposited data

How the results depend on the processing

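Glul and Car14 kept their direction and their side of the threshold in all 16 alternatives. The count of members higher was 3, and 2 to 3 with 1 retina left out. The count lower was 1, and 0 with robust dispersion (Apoe adjusted p = 0.0763) or the replicate block, and 0 to 1 with 1 retina left out. All genes called numbered 647 to 3590 in the fits with 1 retina left out. With no minimum fold change, the count called differentially expressed rose from 1 to 4. With the replicate block, edgeR's adjusted p was 0.0439 for Glul, 0.0407 for Car14, 0.0566 for Kcnj10 and 0.0577 for Apoe, and all genes called fell from 2799 to 106 in a fit with fewer residual degrees of freedom. The replicate numbers share no source in the labels.

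Scaling by total counts alone shifted the median of all genes to -0.168 and gave 778 genes higher and 2610 lower, against 1243 and 1556. Kcnj10 then had a log2 fold change of 0.30 (edgeR adjusted p = 0.0565) and Clu turned to -0.0888. Leaving out 1 retina gave log2 fold changes of -0.0982 to 0.383 for Clu and -0.15 to 0.036 for Dkk3. Set against the other Müller glia genes, Slc1a3 turned to 0.366, Dkk3 to 0.42 and Clu to 0.584. Of the related lists, gliosis genes lower numbered 5, and 9 with total counts, 8 with DESeq2 and 3 with robust dispersion, and glutamate genes higher 3, and 6 with DESeq2. The replicate block left 0 to 2 calls per list and direction. The cause of these changes was not tested. With 3 retinae per genotype, exact tests of a single ratio cannot go below 0.1, and groups of 3 are too small for a test of outlying samples.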

Other observations

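Markers of other cell types were read beside the 8 genes. Of 10 bipolar cell markers, 3 were higher and 7 did not pass. Otx2, a homeobox gene of photoreceptors and bipolar cells, was at 3232, 2703 and 2124 normalized counts in the TKO retinae and at 1227, 1309 and 1652 in the DKO retinae, without overlap (log2 fold change 0.94, edgeR adjusted p = 0.0106), and its call was lost without DKO replicate 1 (0.0509) or DKO replicate 2 (0.0539). None of 10 amacrine markers passed, and their sums were 2350 to 2740 CPM in TKO and 2610 to 2840 CPM in DKO retinae.

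Of 9 endothelial and pericyte markers 1 passed, Pecam1 (log2 fold change 0.87, edgeR adjusted p = 0.0336), which passed with 1 retina left out only without TKO replicate 3 (0.0238) or DKO replicate 3 (0.0123), and the sums were 407 to 515 CPM in TKO and 420 to 550 CPM in DKO retinae. Of 12 lens markers, 6 were higher. Their sums were 59.0, 321 and 51.0 CPM in the TKO retinae and 12.4 to 13.1 CPM in DKO retinae. The highest sum was that of TKO replicate 2. The part of lens RNA in the values of the 8 Müller glia genes was not tested.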
